A study of Mus musculus with 12 samples.

Results

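The secreted ligands of the WNT, FGF, BMP/GDF and hedgehog families were followed in the main olfactory epithelium (MOE) of H2be-KO and WT mice. Members were defined by gene symbol, under a rule chosen with earlier results of these data known. A probe set, which is the group of array probes that reads 1 transcript, was taken by the gene symbols the platform annotation gives it. Every symbol had to be a numbered Wnt, Fgf, Bmp or Gdf symbol or Shh, Ihh or Dhh. This gave 65 probe sets for 64 gene symbols, of 28944 experimental probe sets on the array, and Wnt4 alone had more than 1 probe set. All 65 had a mean log2 signal above 5 and were among the 28151 probe sets tested. The naming rule reached beyond ligands in a few cases: Bmp2k encodes a protein kinase named for its induction by BMP2, Bmp1 encodes a metalloprotease, and Fgf11 to Fgf14 encode FGF homologous factors that stay inside the cell and bind sodium channels.

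H2BE is an olfactory variant of the core histone H2B, and the arrays asked which transcripts differ in its absence. In H2be-KO mice the H2be coding sequence is replaced in every cell by a membrane-tagged fluorescent reporter (Gap43-mCherry), whereas WT mice carry the intact gene. RNA came from whole MOE at 6 months of age, pooled from a pair of animals for each of 6 H2be-KO and 6 WT arrays (Mouse Gene 1.0 ST). Males and females were used in equal measure. The labels give neither a strain nor the sex of single arrays. The 4 Y-linked genes examined were high in 3 of the 6 arrays of each genotype. Xist had a log2 signal of 3.89 or less in those arrays and 11.39 or more in the others. By these genes each array read as a single sex.

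WNTs are lipid-modified signals that bind Frizzled receptors with LRP co-receptors. FGFs signal through receptor tyrosine kinases, BMPs and GDFs through pairs of serine/threonine kinase receptors that act on SMAD proteins, and hedgehogs through Patched and Smoothened. In the olfactory system these families are known for placode patterning, for the balance between stem cells and new neurons, and for feedback on neuron number, in which GDF11 is the textbook inhibitor of neurogenesis.

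The samples read as MOE by their markers: the list of 6 mature neuron genes averaged 12.03 to 12.33 in the H2be-KO arrays and 12.13 to 12.23 in the WT arrays on the log2 scale. Array medians lay between 7.84 and 7.90. H2be itself (annotated as H2bc21) averaged 11.65 ± 0.12 in H2be-KO and 11.89 ± 0.17 in WT (SD, n = 6 arrays each), a small difference of -0.24, and whether its probes lie in the replaced coding sequence was not tested. Array signals are relative brightness with no count of molecules, and in bulk tissue fewer cells of a type and less RNA per cell cannot be told apart. The number of arrays limits the precision: the median standard error of a genotype difference was 0.123 log2 units over the ligands.

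Ligand transcripts differed little between the genotypes. Gdf7 and Fgf21 were the 2 ligands past an unadjusted limma p of 0.05, both lower in H2be-KO, and no ligand was called higher. The 2 lower calls are 3.08% of the 65, beside 1.77% of all tested probe sets called lower at the same threshold, and the 0 higher calls stand beside a background of 3.78%. The exact permutation test at the same threshold likewise called 2 ligands lower and 0 higher, beside 2.03% and 3.98% of all tested. No ligand passed a Benjamini-Hochberg adjusted p of 0.05 in limma, where the smallest adjusted p among the 65 was 0.753 and that over all tested probe sets was 0.572.

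The direction of the differences was uneven. Of the 65 ligands, 45 had a lower mean in H2be-KO (69.2%), compared with 43.8% of all tested probe sets. The count was 53 after quantile normalisation and 52 after median centring, where the median of all tested was -0.0004 and 0.0091. With single arrays left out it ran from 38 (without WT replicate 4) to 54 (without WT replicate 3). The median difference, H2be-KO minus WT, was -0.05 on the log2 scale for the ligands and 0.02 for all tested. Single differences ran from -0.26 (Fgf21) to 0.31 (Wnt1). No ligand had every H2be-KO array below every WT array, nor the reverse, while each pattern was seen in 0.0888% of all tested probe sets.

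**Figure D1:**
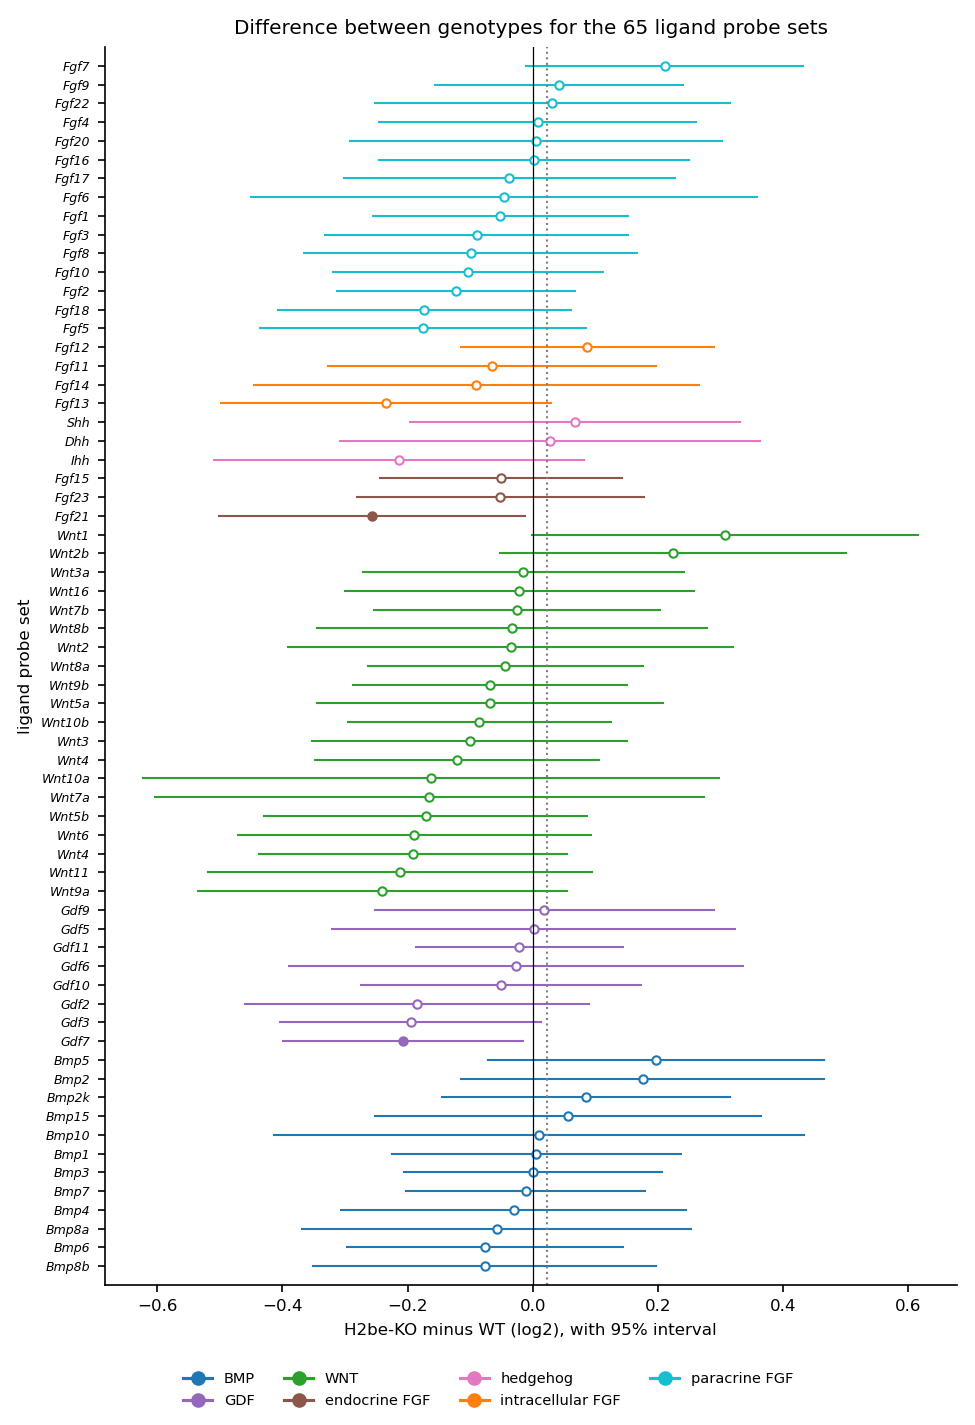
Difference between genotypes (log2, x axis) for each of the 65 ligand probe sets (y axis), coloured by role, with the 95% interval of limma; filled points have an unadjusted p under 0.05 and the dotted line is the median of all tested probe sets. Only Gdf7 (-0.21) and Fgf21 (-0.26) are filled, and 18 of the 20 WNT probe sets lie left of 0.

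Gdf7 encodes a BMP-like ligand known from roof plate signalling in the spinal cord. Its log2 signal had a lowest value of 9.58, a median of 9.78 and a highest value of 9.93 in the H2be-KO arrays, against 9.75, 10.01 and 10.14 in the WT arrays. All 6 H2be-KO arrays lay below the WT median and 3 of them below every WT array, and the groups overlapped. The means were 9.76 ± 0.14 and 9.97 ± 0.14 (SD, n = 6), a fall of 1.15-fold (difference -0.21, SE 0.09, exact permutation p = 0.0368).

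Fgf21 encodes a circulating FGF that acts with the co-receptor beta-Klotho and is best known as a metabolic hormone of liver and fat. Its log2 signal had a lowest value of 7.13, a median of 7.63 and a highest value of 7.95 in H2be-KO, and 7.69, 7.87 and 7.99 in WT. In this case 5 of the 6 H2be-KO arrays fell below every WT array and the other one lay within the WT range. The means were 7.6 ± 0.27 and 7.85 ± 0.11 (SD, n = 6), a fall of 1.19-fold (difference -0.26, SE 0.11, exact permutation p = 0.0368). Genes for the other endocrine FGFs did not pass the test: the difference was -0.05 (SE 0.09) for Fgf15, the bile acid regulator whose human counterpart is FGF19, and -0.05 (SE 0.11) for Fgf23, the phosphate hormone.

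Both calls were lost when some of the single arrays were left out. Gdf7 failed both the limma and the exact permutation threshold without H2be-KO replicate 3 (exact p = 0.0671), 5 (0.0671) or 6 (0.0649), and without WT replicate 1 (0.0584), 2 (0.0606), 4 (0.0714) or 5 (0.0584). It passed both in the other 5 of these 12 fits. Fgf21 failed both without H2be-KO replicate 3 (exact p = 0.0606), 5 (0.0714) or 6 (0.0606), and without WT replicate 2 (0.0714), 3 (0.0736), 4 (0.0866) or 5 (0.0736). The Fgf21 difference was -0.16 without H2be-KO replicate 5. Each difference kept its negative sign in all 12 fits.

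On the other side of 0, Wnt1 and Fgf7 came nearest to the threshold and are described here after their values were seen. Wnt1, the ligand known for patterning the midbrain, had a lowest value of 6.20, a median of 6.66 and a highest value of 6.80 in H2be-KO, and 5.99, 6.19 and 6.85 in WT. The 6 H2be-KO arrays all lay above the WT median, but 1 WT array was higher than any of them. The difference of 0.31 (SE 0.14) had an exact permutation p of 0.0887, and limma called it higher after quantile normalisation and after median centring. Fgf7, the keratinocyte growth factor made by stroma and received by epithelia, ran from 7.93 to 8.31 in H2be-KO and from 7.52 to 8.12 in WT. Its difference was 0.21 (SE 0.10, exact permutation p = 0.0649), again with all 6 H2be-KO arrays above the WT median. Stromal marker genes had higher array means in the same direction, 10.62 to 10.79 in H2be-KO and 10.29 to 10.72 in WT. Of these 6 genes, 1 was called higher (Lum), and their part in the Fgf7 difference was not tested. WT replicate 4 had the lowest WT value of both Fgf7 and the stromal list.

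The promoters of these 4 genes are shown because Gdf7 and Fgf21 are the 2 calls and Wnt1 and Fgf7 the nearest to a call in the other direction. Each run is the 250 bases before the RefSeq start site on GRCm38.p6, 5′ to 3′ on the gene's strand. Capitals mark a GC box (GGGCGG, either strand), a TATA box (TATAAA) or an E-box (CACGTG). The regions are chr12:8301955-8302204 (minus strand) for Gdf7, chr7:45615491-45615740 (minus strand) for Fgf21, chr15:98789607-98789856 (plus strand) for Wnt1 and chr2:126034408-126034657 (plus strand) for Fgf7.
Gdf7: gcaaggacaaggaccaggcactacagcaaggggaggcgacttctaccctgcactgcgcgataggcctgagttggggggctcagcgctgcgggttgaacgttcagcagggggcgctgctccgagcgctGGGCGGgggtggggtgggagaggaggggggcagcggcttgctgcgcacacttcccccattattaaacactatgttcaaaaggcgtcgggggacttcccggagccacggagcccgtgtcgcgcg
Fgf21: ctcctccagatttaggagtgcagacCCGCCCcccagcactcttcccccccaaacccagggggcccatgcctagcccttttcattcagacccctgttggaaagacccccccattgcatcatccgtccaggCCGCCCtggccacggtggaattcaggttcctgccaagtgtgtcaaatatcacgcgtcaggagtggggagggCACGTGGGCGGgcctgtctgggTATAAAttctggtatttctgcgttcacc
Wnt1: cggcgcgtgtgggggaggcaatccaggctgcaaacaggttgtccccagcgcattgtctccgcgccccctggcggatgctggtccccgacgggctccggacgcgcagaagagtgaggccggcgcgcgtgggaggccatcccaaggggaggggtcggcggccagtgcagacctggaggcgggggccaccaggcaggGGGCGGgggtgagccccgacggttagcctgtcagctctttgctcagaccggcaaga
Fgf7: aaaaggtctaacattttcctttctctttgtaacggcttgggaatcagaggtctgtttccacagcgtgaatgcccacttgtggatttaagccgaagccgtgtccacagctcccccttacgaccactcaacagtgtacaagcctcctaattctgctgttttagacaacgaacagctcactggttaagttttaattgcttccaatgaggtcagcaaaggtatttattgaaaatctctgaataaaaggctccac

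The 4 promoters differed in base composition. That of Wnt1 held 71.6% G and C with 23 CpG sites and 1 GC box, and that of Gdf7 held 66.0% with 20 CpG sites and 1 GC box. The Fgf21 promoter held 59.6% with 9 CpG sites and 3 GC boxes, and was the only one of the 4 with a TATA box and an E-box, the latter overlapping a GC box. The Fgf7 promoter held 43.6% with 6 CpG sites and none of the motifs searched. Each motif was searched on both strands.

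Across the family, promoters were rich in G and C. RefSeq windows matched 45 of the 64 genes and gave 54 promoters, of which 43 were above the median of all 32851 mouse promoters of the same length. The median content was 63.8% for the ligands and 52.4% for all promoters, and the median number of CpG sites was 19 and 6. A GC box stood in 68.5% of ligand promoters and 32.7% of all, whereas TATAAA stood in 9.26% and 12.4%, CACGTG in 7.41% and 6.02%, and CTTTGA, the core of the TCF/LEF motif through which WNT signals reach genes, in 9.26% and 13.8%. These are matches of letters, and binding was not measured.

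WNT genes leaned to lower means in H2be-KO, though none passed the test. Of 20 probe sets for 19 genes, 18 had a lower mean in H2be-KO and 2 a higher mean, with a median difference of -0.08 on the log2 scale and 0 calls by limma or by the exact permutation test. The same 18 to 2 split was found after quantile normalisation and after median centring. Leaving out single arrays gave between 14 (without WT replicate 4) and 18 lower means. Wnt9a (-0.24, SE 0.14), known from joint formation, Wnt11 (-0.21, SE 0.14), a non-canonical WNT of convergent extension, and Wnt6 (-0.19, SE 0.13) were among the most negative. Wnt4, a kidney and gonad signal, gave -0.19 (SE 0.12) from 1 probe set and -0.12 (SE 0.11) from the other. The 2 positive members were Wnt1 and Wnt2b (0.22, SE 0.13, exact permutation p = 0.139).

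Wnt5a, a non-canonical WNT, had a lowest value of 7.34, a median of 7.72 and a highest value of 8.10 in H2be-KO, and 7.57, 7.69 and 8.16 in WT. The groups covered much the same range. The means were 7.71 ± 0.25 and 7.78 ± 0.23 (SD, n = 6), a difference of -0.07 with a 95% interval from -0.35 to 0.21.

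The 15 paracrine FGF genes held no call, with 9 negative and 6 positive differences and a median of -0.05. Under quantile normalisation and under median centring 12 of the 15 differences were negative. Fgf8, the signal of the early olfactory pit rim, was 7.11, 7.37 and 7.71 (lowest, median, highest) in H2be-KO and 7.28, 7.40 and 7.93 in WT. Its difference of -0.10 (95% interval -0.36 to 0.17) was smaller than the range within either genotype. The lowest differences of this role were those of Fgf5 (-0.17, SE 0.12), known in hair growth control, and Fgf18 (-0.17, SE 0.11), known in cartilage. Fgf20, known from the inner ear, gave 0.00 (SE 0.14), and Fgf1, the acidic FGF, gave -0.05 (SE 0.10). Fgf2, a heparin-binding mitogen, had all 6 H2be-KO arrays below the WT median with a difference of -0.12 (SE 0.09, exact permutation p = 0.13).

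Of the 4 intracellular FGF homologous factors, 3 had negative differences and none passed the test. Fgf12 was 10.48, 10.74 and 10.84 (lowest, median, highest) in H2be-KO and 10.41, 10.58 and 10.86 in WT. Its groups overlapped nearly throughout, with a difference of 0.09 (95% interval -0.12 to 0.29). Fgf13 ran from 6.99 to 7.30 in H2be-KO and from 6.83 to 7.69 in WT, a difference of -0.23 (SE 0.12, exact permutation p = 0.108). All 6 H2be-KO arrays of Fgf13 lay below the WT median, while the lowest single array was a WT one.

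**Figure D2:**
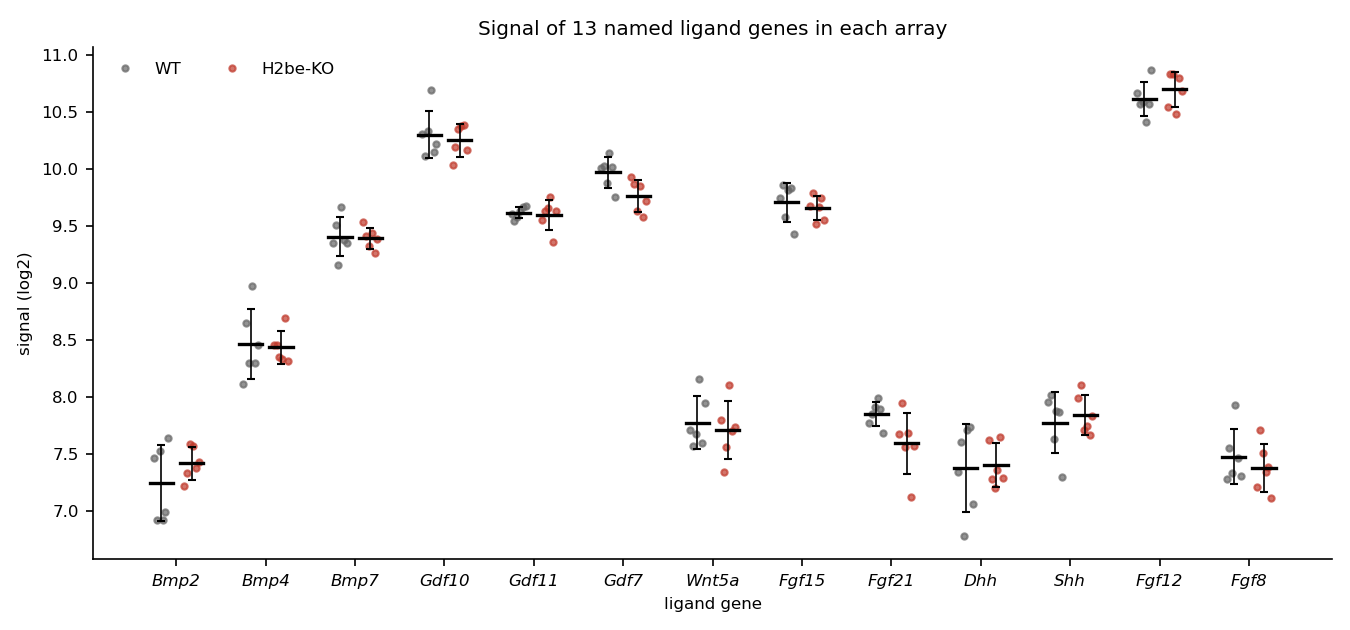
Log2 signal (y axis) of 13 ligand genes (x axis) in each WT array (grey points) and H2be-KO array (red points), with the mean (bar) and SD (whisker) of 6 arrays. The groups overlap for every gene; Gdf7 and Fgf21 have the H2be-KO mean lower, by 0.21 and 0.26.

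The BMP genes were balanced between the genotypes, with 5 negative and 7 positive differences, a median of 0.00 and no call. Under quantile normalisation 9 of the 12 differences were negative and under median centring 8 were, so the balance depended on the scaling. Bmp4, which together with Bmp2 acts through the BMP type I receptors, was 8.32, 8.40 and 8.70 (lowest, median, highest) in H2be-KO and 8.12, 8.38 and 8.98 in WT. The WT arrays spread over the whole H2be-KO range, and the difference was -0.03 (95% interval -0.31 to 0.25). Bmp2 was 7.22, 7.40 and 7.59 in H2be-KO and 6.92, 7.23 and 7.64 in WT. Its difference of 0.18 (SE 0.14) had an exact permutation p of 0.242, with 5 of 6 H2be-KO arrays above the WT median.

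Bmp7, known from eye and kidney development, was 9.26, 9.40 and 9.53 in H2be-KO and 9.16, 9.37 and 9.67 in WT. Its groups overlapped throughout, with a difference of -0.01 (95% interval -0.20 to 0.18). Bmp5, the gene of the short ear mutant, had the highest difference of the BMP genes, 0.20 (SE 0.13, exact permutation p = 0.139). The near-identical pair Bmp8a and Bmp8b may share signal between their probes, and gave -0.06 (SE 0.15) and -0.08 (SE 0.13). Bmp1 and Bmp2k, which are enzymes, gave 0.01 (SE 0.11) and 0.08 (SE 0.11).

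Among the 8 GDF genes, 6 differences were negative and Gdf7 was the only call. Gdf11, the feedback inhibitor of olfactory neurogenesis, was 9.36, 9.63 and 9.75 (lowest, median, highest) in H2be-KO and 9.55, 9.62 and 9.68 in WT. The WT arrays lay within the H2be-KO range, and the difference was -0.02 with a 95% interval from -0.19 to 0.14. Gdf10 (also called BMP3B) was 10.03, 10.27 and 10.39 in H2be-KO and 10.12, 10.26 and 10.69 in WT, a difference of -0.05 (95% interval -0.27 to 0.17). Gdf3 came closest to the threshold after Gdf7, at -0.20 (SE 0.10, exact permutation p = 0.0628), with all 6 H2be-KO arrays below the WT median. A probe set that reads Gdf1 together with Cers1, which shares its transcript, falls outside the naming rule and gave -0.26 (SE 0.12, exact permutation p = 0.0649).

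The 3 hedgehog genes held no call. Shh was 7.67, 7.79 and 8.10 (lowest, median, highest) in H2be-KO and 7.30, 7.87 and 8.02 in WT, a difference of 0.07 (95% interval -0.20 to 0.33). Dhh, the hedgehog of nerve sheath and testis, was 7.20, 7.33 and 7.65 in H2be-KO and 6.78, 7.48 and 7.74 in WT, a difference of 0.03 (95% interval -0.31 to 0.36). In both genes the lowest array was a WT one. Ihh, the growth plate signal, ran from 8.0 to 8.67 in H2be-KO and from 8.05 to 8.84 in WT, a difference of -0.21 (SE 0.14, exact permutation p = 0.184). Bone and cartilage markers, 6 genes with no call, ranged over 7.62 to 8.64 in H2be-KO and 7.77 to 8.64 in WT.

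Fgf15, read with the endocrine group, was 9.52, 9.67 and 9.79 (lowest, median, highest) in H2be-KO and 9.43, 9.78 and 9.86 in WT. The H2be-KO values lay inside the WT range, and 5 of 6 were below the WT median. The 95% interval of its difference was -0.24 to 0.14.

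Several ligand genes lie side by side in the genome. In RefSeq gene order, 11 pairs had at most 4 coding genes between them, and 7 of these had differences of the same sign. Wnt6, Wnt10a and Ihh on chromosome 1 gave -0.19, -0.16 and -0.21. Wnt3a and Wnt9a, adjacent on chromosome 11, gave -0.02 and -0.24, and Wnt9b and Wnt3, also adjacent there, gave -0.07 and -0.10. The neighbours Wnt10b and Wnt1 on chromosome 15 went apart, at -0.09 and 0.31. None of these single differences passed the limma test, so the signs are a description only.

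The level of the ligands as a set varied between arrays of 1 genotype by more than between the genotypes. The mean of the 65 ligands, less the array's mean over all tested probe sets, was -0.35 ± 0.08 in H2be-KO and -0.28 ± 0.11 in WT (SD, n = 6), and the groups overlapped. It was lowest in WT replicate 6 (-0.46) and H2be-KO replicate 5 (-0.46), and highest in WT replicate 2 (-0.16) and WT replicate 4 (-0.17). WT replicate 6 was the lowest WT array for 37 of the 65 ligands (56.9%), compared with 28.6% of all tested probe sets. By role this held for 15 of 20 WNT probe sets, 5 of 8 GDF genes, 3 of 12 BMP genes and 7 of 15 paracrine FGF genes. This array also had the widest spread of signal, with an SD over tested probe sets of 1.65 against 1.52 to 1.59 in the other arrays.

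**Figure D3:**
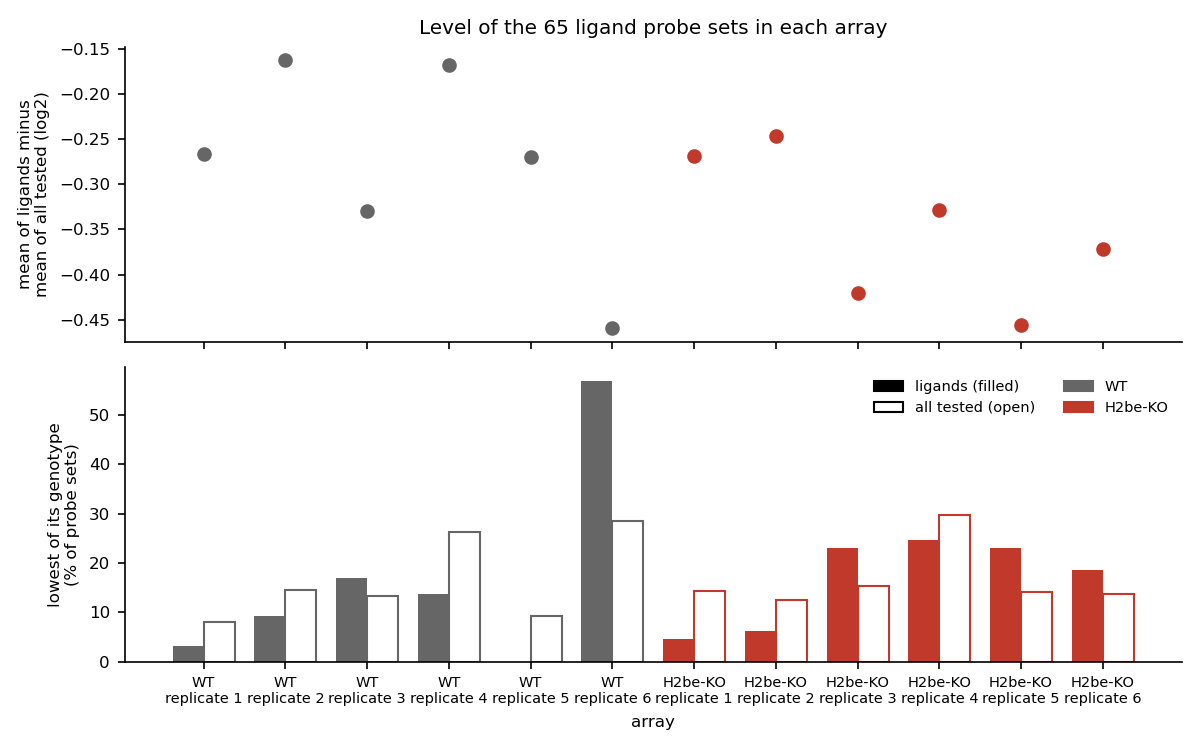
Top, mean of the 65 ligands minus the mean of all tested probe sets (log2, y axis) in each array (x axis); bottom, share of probe sets (%) for which the array is the lowest of its genotype, for ligands (filled) and all tested (open), with WT in grey and H2be-KO in red. WT replicate 6 is lowest for 56.9% of the ligands.

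The marker lists of WT replicate 6 differed from the other WT arrays in both directions. Its mature neuron list averaged 12.23, just above the 12.13 to 12.22 of the other WT arrays. Its sustentacular list averaged 11.98, a little above their 11.74 to 11.93, and its stroma list 10.69, within their 10.29 to 10.72. Its bone and cartilage list was the highest in WT at 8.64, above the 7.77 to 8.13 of the others, and its tooth list the lowest at 5.89, below their 6.17 to 6.55. The part of these values in the ligand signals was not tested.

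Without WT replicate 6, limma called more ligands. At the same unadjusted threshold 12 were lower in H2be-KO (18.5%), beside 5.51% of all tested probe sets, and 2 were higher (3.08%), beside 8.05%. The median difference of the 65 moved to -0.10 while that of all tested was 0.02. No ligand passed an adjusted p of 0.05 in limma here either, the smallest being 0.359. This array was singled out after its values were seen. It was the lowest WT array for 37 of the 65 ligands, so leaving it out raises their WT means by construction. The added lower calls are therefore no separate evidence of a genotype difference. Leaving out WT replicate 4 instead moved the median to -0.02 and left 0 lower calls. WT replicate 4 was the highest WT array for 23 of the 65 ligands (35.4%), compared with 24.2% of all tested probe sets. Several of its marker lists were also at the edge of the WT arrays. Horizontal basal markers were highest there (9.28), and immature neuron (9.53), stroma (10.29) and sustentacular markers (11.74) were lowest. The part of these marker values in the ligand signals was not tested.

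The 12 lower ligands came from several roles. WNT genes gave Wnt7a (-0.37), known from limb dorsal identity and neurons, Wnt9a (-0.33), Wnt11 (-0.31) and Wnt6 (-0.29). Wnt7a shows how much this array weighed: its signal was 6.01 in WT replicate 6 and 6.81 or more in the other WT arrays. FGF genes gave Fgf13 (-0.33), which is an intracellular factor and no secreted ligand, Fgf21 (-0.29), Fgf5 (-0.26) and Fgf18 (-0.23). The rest were Ihh (-0.32), Gdf2 (-0.26), a vascular BMP also called BMP9, Gdf3 (-0.26) and Gdf7 (-0.25). Fgf7 (0.26) and Bmp5 (0.28) were higher. The exact permutation p of the 14 ranged from 0.0065 (Gdf3) to 0.0931 (Gdf2).

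**Figure D4:**
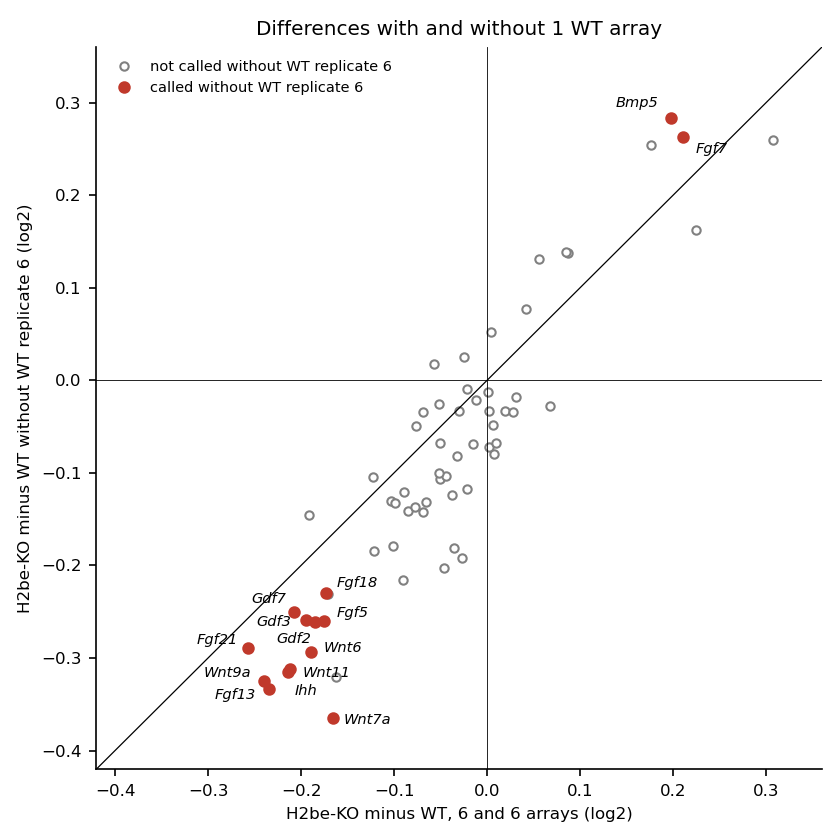
Difference between genotypes (log2) for each ligand probe set with all arrays (x axis) and without WT replicate 6 (y axis), with the line of equality; red points are called at an unadjusted limma p under 0.05 without that array. There are 12 called points below 0 and 2 above.

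Receptors, antagonists and targets of the same pathways were read from lists, with a further list of 17 TGF-beta superfamily ligands outside the naming rule. Together the lists held 111 genes, of which 108 matched 112 probe sets. Of these 1 was higher and 2 were lower in H2be-KO (0.893% and 1.79%, beside 3.78% and 1.77% of all tested), with a median difference of -0.05. Without WT replicate 6 the counts were 4 higher and 11 lower, beside 8.05% and 5.51% of all tested in that fit. The lists of WNT, FGF, BMP and hedgehog receptors (medians -0.08, -0.06, -0.01 and -0.10) and of WNT, FGF, BMP and hedgehog targets (medians -0.03, -0.02, 0.01 and 0.04) held no call. The hedgehog receptor list also held Disp1 (-0.11 and -0.07), which acts in hedgehog release and is no receptor. Axin2, the most widely used WNT target, gave -0.18 (SE 0.10, exact permutation p = 0.0996).

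The 3 calls were all secreted proteins. Sfrp5, a secreted Frizzled-related WNT antagonist, was 6.05, 6.5 and 6.92 (lowest, median, highest) in H2be-KO and 6.47, 7.01 and 7.14 in WT. It was lower by 1.36-fold (difference -0.44, SE 0.14, exact permutation p = 0.0195), with 3 H2be-KO arrays below every WT array. Sfrp4, of the same family, went the other way: it was 10.32 to 10.64 in H2be-KO and at most 10.41 in WT, with all 6 H2be-KO arrays above the WT median, a rise of 0.20 (SE 0.09, exact permutation p = 0.0303). Inha, from the list of TGF-beta superfamily ligands outside the naming rule, encodes the alpha subunit of the activin antagonist inhibin. Its signal ran from 7.41 to 7.79 in H2be-KO and from 7.72 to 8.02 in WT. Inha was lower by 1.25-fold (difference -0.32, SE 0.09, exact permutation p = 0.0043), with 5 of 6 H2be-KO arrays below every WT array. No gene of the lists was called higher after quantile normalisation or median centring, or without H2be-KO replicate 1, WT replicate 1 or WT replicate 5, so the Sfrp4 call ended there. None of the 3 passed adjustment over all probe sets (limma adjusted p = 0.753 for each).

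**Figure D5:**
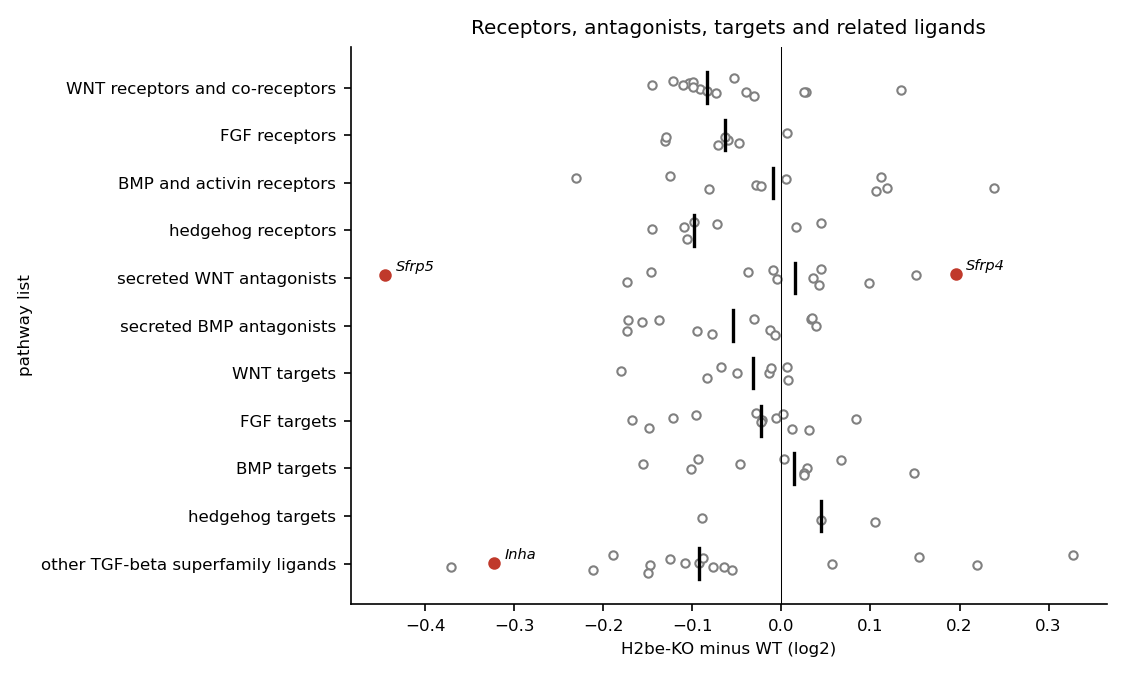
Difference between genotypes (log2, x axis) for 112 probe sets of 11 pathway lists (y axis), with the median of each list as a bar and called genes in red. Sfrp5 (-0.44) and Inha (-0.32) are called lower and Sfrp4 (0.20) higher, and no receptor or target gene is called.

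Markers of the cell types that whole MOE can hold were called in few cases. Of 56 marker probe sets 3 were higher in H2be-KO (Gap43 0.25, Fabp7 0.22, Lum 0.24) and 1 was lower (Itgb4 -0.26), which is 5.36% and 1.79% beside 3.78% and 1.77% of all tested. Some lists leaned to one side, where 43.8% of all tested probe sets had a lower mean in H2be-KO. All 4 horizontal basal cell markers had a lower mean (median difference -0.19). A higher mean was found for all 4 immature neuron (median 0.15), 6 stroma (0.15), 5 sustentacular (0.08) and 3 blood and macrophage markers (0.04). WT replicate 4 was the WT array farthest from H2be-KO in the horizontal basal, immature neuron, stroma and sustentacular lists. The part of these markers in the ligand differences was not tested, and whether Gap43 probes read the reporter's Gap43 tag was not tested. The tooth gene Amelx was high in H2be-KO replicates 1 and 6 (11.87 and 11.66) and between 5.11 and 6.03 elsewhere. Without both of these arrays Gdf7 was still lower (-0.24, exact permutation p = 0.0238), whereas Fgf21 gave -0.27 (exact permutation p = 0.0762).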

How the data were processed

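Whole MOE RNA was hybridised to Mouse Gene 1.0 ST arrays. In the study's methods, scanner files passed a quality screen (arrayQualityMetrics), the IterPLIER algorithm of Affymetrix Expression Console summarised the probes, and sketch-quantile normalisation made the arrays comparable. The sources used here give no tool versions and no build for the annotation. What the authors deposited are log2 signals on this normalised scale, which can hide a shift shared by most transcripts. The arrays were not fully alike on it, with medians of 7.84 to 7.90 and SDs over tested probe sets of 1.52 to 1.65. Groups came from the sample titles, and no batch was given. The study's methods call the arrays of a genotype biological replicates.

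Control probe sets (6612) were left out and 28944 kept, of which 21789 carried 1 symbol. Those whose mean log2 signal exceeded 5 were fitted with lmFit and eBayes (limma 3.58.1, R 4.3.3), genotype being the only term, with Benjamini-Hochberg adjustment over all 28151. A call is an unadjusted p under 0.05. Exact permutation tests were two-sided over all choices of 6 of 12 arrays, with a smallest possible p of 0.0022. The model was tested on simulated data. Members, lists and tests were chosen with earlier results of these data known. Genes given in detail were those called, the 6 members of highest mean signal and Gdf11, Bmp2, Bmp4, Bmp7, Fgf8, Wnt5a, Shh and Dhh; others are named by role, neighbourhood or a call without 1 array. Alternatives varied the filter, floor, scaling, moderation, covariates, weights, gene averaging and arrays. Promoters and gene order are RefSeq's on GRCm38.p6; promoters were found for 45 of 64 genes.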

Additional observations from a re-analysis of the deposited data

Results flagged for a closer look

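In 5 of 130 groups of 6 arrays (65 probe sets in each genotype), 1 array lay far from the others by Dixon's criterion. This is 3.85% of the groups, and chance alone sets apart about 1 in 20. WT replicate 6 was the low array 3 times: Gdf3 was 6.47 there with the next WT array at 6.78, Gdf6 was 6.39 with the next at 7.17, and Ihh was 8.05 with the next at 8.55. Gdf6 is a BMP-like ligand of joint and eye development. Fgf23 was 8.56 in H2be-KO replicate 3, with the next H2be-KO array at 8.83. Fgf13 was high in H2be-KO replicate 4, at 7.30, with the next at 7.10.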

How the results depend on the processing

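The 65 ligands gave 2 lower and 0 higher calls as first fitted. Leaving out single arrays gave 0 to 12 lower calls (1.11% to 5.51% of all tested), 0 to 2 higher calls (1.82% to 8.05%) and a median difference from -0.10 to -0.02. No setting moved the median by more than 0.11, the larger SD of the ligand level between arrays of 1 genotype. This bound is wider than the median difference itself (-0.05), so it cannot show that the median was stable. The median was -0.10 without WT replicate 6 and -0.02 without WT replicate 4. The number of lower calls was 4 under quantile normalisation (3.2% of all tested were lower there), 7 with array weights (4.99%) and 1 without both arrays of high Amelx (1.59%). There was 1 higher call (Wnt1) with a mean above log2 6, with values raised to a floor of log2 5, under quantile normalisation, under median centring and after averaging by symbol, where 2.9% to 3.83% of all tested were higher, and 4 with array weights (9.57%). Over all tested probe sets, lower calls were 31.9% of calls as deposited, 52.2% under quantile normalisation and 46.2% under median centring.

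The pathway lists, with 1 higher and 2 lower calls, gave 0 higher under quantile normalisation and median centring, 2 with trend and robust moderation and 3 with array weights, and 6 lower under quantile normalisation and 10 with array weights. Of all tested, 2.93%, 2.9%, 4.28% and 9.57% were higher in these fits, in the order named, and 3.2% and 4.99% were lower. Single arrays left out gave 0 to 4 higher and 2 to 11 lower. The H2be difference was -0.20 without both arrays of high Amelx (exact permutation p = 0.081, not called by limma) and -0.29 to -0.19 with single arrays left out.

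Small differences changed sign. With array weights Bmp7 was 0.0074, Bmp4 0.0945, Shh -0.0090 and Dhh -0.0163. Without both arrays of high Amelx, Gdf10 was 0.0262, Fgf8 0.0102 and Dhh -0.0010. With single arrays left out, the lowest and highest values were -0.0875 and 0.0268 for Gdf10, -0.0524 and 0.0251 for Gdf11, -0.0605 and 0.0414 for Bmp7, -0.0996 and 0.0722 for Bmp4, -0.1474 and 0.0075 for Wnt5a, -0.0279 and 0.1162 for Shh and -0.0906 and 0.1008 for Dhh. The cause was not tested.

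With the replicate number as a block, 5 ligands were called lower (Fgf13, Fgf21, Gdf3, Gdf7 and 1 Wnt4 probe set) and 2 higher (Fgf7 and Wnt1), and 5 and 3 of the pathway lists, beside 3.38% lower and 7.24% higher of all tested. After removal of the genotype means, same-numbered arrays correlated at 0.0896, 0.592, 0.393, 0.319, 0.0251 and 0.377 for numbers 1 to 6, and 8 of 12 arrays correlated best with their own number. In both genotypes Y-linked genes were high in replicates 4 to 6 and low in replicates 1 to 3. This is a hint of pairing from the data. The labels do not say what a number marks, and numbers 1 and 5 correlated under 0.1, so the numbers were not taken as pairs.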
